A study of Homo sapiens with 8 samples.

Results

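The genes described here are 9 genes of the NRF2 antioxidant response: NFE2L2, KEAP1, SLC7A11, GCLC, GCLM, TXNRD1, SRXN1, NQO1 and HMOX1. They were taken by name, with no cutoff on their values, from a table of read counts for 58302 genes, and all 9 were in the table. Earlier results of these data were known when they were chosen. RNA sequencing was performed on DLD1 cells, a human colorectal cancer line, infected with lentiviruses. OE-WT cells stably overexpressed wild-type TRMT6 and TRMT61A together, and CTRL cells carried the empty vector. TRMT6 and TRMT61A form the enzyme complex that writes N1-methyladenosine (m1A) on tRNA. No other treatment is given for either group, and every culture was washed in cycloheximide, an inhibitor of translation elongation, before lysis. There were 2 libraries per group, and the labels give 2 lanes for each. The sources used here do not say whether a cell line was 1 clone or a pool.

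NFE2L2 encodes NRF2, a transcription factor that is kept scarce in unstressed cells because KEAP1, an adaptor of the CUL3 ubiquitin ligase, marks it for degradation. Oxidants and electrophiles modify KEAP1, NRF2 then accumulates, pairs with a small MAF protein and binds antioxidant response elements in its target genes. The targets supply glutathione and reduced thioredoxin, detoxify quinones and degrade heme. In the colon the pathway is known for protecting the epithelium from reactive compounds of the diet and of inflammation. Because KEAP1 acts on the NRF2 protein, target transcripts are commonly used to read its activity, and the RNA of NFE2L2 says little about it.

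The libraries held between 10327498 and 12379671 counts on genes, and a count of 0 allowed up to 3 counts, which is between 0.233 and 0.302 CPM. CPM here are read counts scaled to a common library size after TMM normalization, and this floor covers counting error only. TRMT6 had 210.7 and 180.9 CPM in OE-WT and 52.62 and 55.44 CPM in CTRL libraries, and TRMT61A 137.5 and 130.4 against 58.92 and 56.82 CPM, so both overexpressed genes were higher in the libraries so labelled. All 8 colon epithelial markers were detected, among them EPCAM, CDH1, KRT8 and KRT18. VIL1 (36 to 45 counts) and LGALS4 (11 to 13 counts) were low in every library, and 4 of the 8 differed between the groups. KRT8 and KRT18 were higher in OE-WT, with log2 fold changes of 0.25 and 0.30 (edgeR adjusted p = 0.0173 and 0.00512), CDH1 was lower at -0.29 (adjusted p = 0.0032), and KRT20, a marker of differentiated epithelium, was lower at -1.52 (adjusted p = 7.03e-08). The epithelial list summed to 11480 and 11770 CPM in OE-WT and to 10340 and 10120 CPM in CTRL libraries. The 6 markers of leukocytes, macrophages, T cells, fibroblasts and endothelium summed to between 1.555 and 2.821 CPM, and COL1A2 and CD3E were at 0 in all 4 libraries. The part of these differences in the results that follow was not tested. Of 14133 genes tested, 21.1% differed between the groups at an adjusted p below 0.05, and 44.8% of these calls were higher in OE-WT; with scaling by library size only, 23.0% of 3184 calls were higher.

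Antioxidant response elements were looked for in RefSeq sequence, because they are the sites through which NRF2 acts on the other members. The core TGACNNNGC, or GCNNNGTCA when it lies on the other strand, was searched on both strands of the 250 bases before each annotated start (GRCh38.p14). Its first letters, TGAC, also begin the site bound by AP-1 factors. RefSeq windows were matched for 7 of the 9 members, with 10 windows in all, and HMOX1 and SLC7A11 had none. The core was present in windows of 3 members, KEAP1, TXNRD1 and GCLM. For KEAP1 it lay in the window before the more downstream of its annotated starts. The upstream KEAP1 window, chr19:10503357-10503606, held none. Among all genes with a window, 13.2% had the core, and 10.9% of all 35116 windows did. The stretches that hold these matches are printed, with the core in capitals, 5′ to 3′ on the strand of the gene.
KEAP1, chr19:10502791-10502851, minus strand, cores starting 54 and 31 bases before the start: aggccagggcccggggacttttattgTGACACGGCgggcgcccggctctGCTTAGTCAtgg
TXNRD1, chr12:104215654-104215714, plus strand, core starting 99 bases before an upstream start: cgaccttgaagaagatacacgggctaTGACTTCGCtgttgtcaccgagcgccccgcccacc
TXNRD1, chr12:104286904-104286964, plus strand, core starting 102 bases before another start: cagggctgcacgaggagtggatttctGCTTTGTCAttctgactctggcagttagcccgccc
GCLM, chr1:93909431-93909490, minus strand, core starting 34 bases before the start: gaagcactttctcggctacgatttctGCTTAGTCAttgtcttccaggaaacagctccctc
KEAP1 and GCLM held the same 9 letters, GCTTAGTCA. The window of NQO1 is shown because NQO1 was the member whose RNA differed between the groups, and the core was not in it. An element farther upstream, in NQO1 or another member, was outside the 250 bases searched.
NQO1, chr16:69726561-69726810, minus strand: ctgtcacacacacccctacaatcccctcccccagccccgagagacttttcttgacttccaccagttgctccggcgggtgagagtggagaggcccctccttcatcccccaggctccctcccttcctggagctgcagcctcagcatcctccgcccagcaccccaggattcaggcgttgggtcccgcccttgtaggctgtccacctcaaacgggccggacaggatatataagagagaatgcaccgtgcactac
A match describes the letters only, and binding was not measured.

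The question put to the members was whether the abundance of their RNA changed with TRMT6/61A overexpression. Of the 9 members, all of which passed the filter on low counts, 1 was lower in OE-WT and 0 were higher at an adjusted p below 0.05. The p-values are those of edgeR's quasi-likelihood test, adjusted over all genes tested, and SE is the standard error of the log2 fold change. Among all genes tested, 11.6% were lower and 9.44% were higher. The one that fell was NQO1. No other member had an unadjusted p below 0.05, and DESeq2's Wald test also called 1 lower and 0 higher. At the study's thresholds, an unadjusted p below 0.05 with an absolute log2 fold change above 1, 0 of the 9 members passed, against 3.15% of all genes tested. The log2 fold changes of the members, OE-WT over CTRL, ranged from -0.40 to 0.10 with a median of 0.02, and the median over all genes tested was 0.01. The groups' libraries did not overlap for 2 members, NQO1 and SLC7A11, and for 60.2% of all genes tested.

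**Figure D1:**
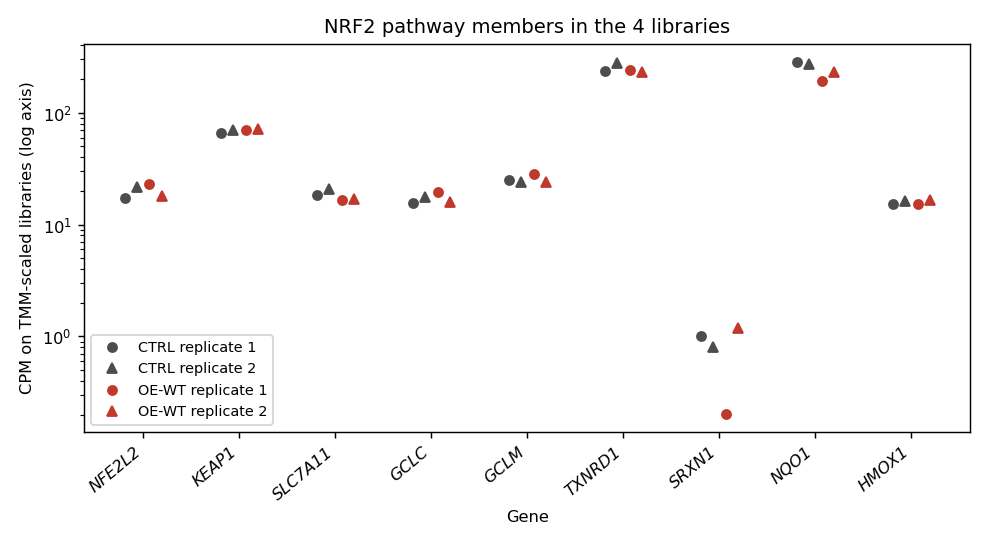
CPM (read counts on TMM-scaled libraries, log axis) of the 9 members in each of the 4 libraries, ordered by role; CTRL in grey and OE-WT in red, circles for replicate 1 and triangles for replicate 2. NQO1 is the member with a called difference, with both OE-WT libraries below both CTRL libraries, and SRXN1 lies near 1 CPM in 3 libraries and at 0.2015 CPM in OE-WT replicate 1.

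The 2 regulators gave values close to equal in both groups. NFE2L2 (ENSG00000116044, chr2:177218667-177392756, GRCh38, minus strand) had 23.07 and 18.18 CPM in OE-WT and 17.26 and 21.75 CPM in CTRL libraries. The libraries of the groups interleaved, with 1 OE-WT library the highest and 1 CTRL library the lowest. The log2 fold change was 0.08 (95% interval -0.20 to 0.36, edgeR adjusted p = 0.719), a ratio of 1.058 with an interval from 0.871 to 1.285. KEAP1 (ENSG00000079999, chr19:10486125-10503558, minus strand) had 69.61 and 71.55 CPM in OE-WT and 65.68 and 70.05 CPM in CTRL libraries. These ranges overlapped within a narrow span, and the interval of the ratio OE-WT over CTRL ran from 0.936 to 1.156 (edgeR adjusted p = 0.631). Of the annotated exon bases of NFE2L2, 23.4% are shared with HNRNPA3 on the opposite strand, so its count depends on the strand setting of the counting, which the sources used here do not give.

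The glutathione members are the cystine transporter subunit SLC7A11, which imports the precursor of cysteine, and GCLC and GCLM, the catalytic and modifier subunits of the rate-limiting enzyme of glutathione synthesis. SLC7A11 (ENSG00000151012, chr4:138164097-138242349, minus strand) had 16.72 and 17.10 CPM in OE-WT and 18.50 and 20.94 CPM in CTRL libraries. Both OE-WT libraries lay below both CTRL libraries, by a gap smaller than the spread of the CTRL libraries. Its log2 fold change was -0.22 (SE 0.12, 95% interval -0.47 to 0.03, edgeR adjusted p = 0.214), which did not pass the test.

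GCLC (ENSG00000001084, chr6:53497341-53616970, minus strand) had 19.64 and 16.02 CPM in OE-WT and 15.55 and 17.61 CPM in CTRL libraries. GCLM (ENSG00000023909, chr1:93885199-93909456, minus strand) had 28.21 and 24.27 CPM in OE-WT and 24.80 and 24.27 CPM in CTRL libraries. For each subunit the OE-WT replicate 1 library was the highest of the 4, and the groups overlapped. The other 3 lay together for GCLM and were spread from 15.55 to 17.61 CPM for GCLC. The log2 fold changes were 0.10 for GCLC (95% interval -0.17 to 0.38) and 0.10 for GCLM (95% interval -0.13 to 0.32), with adjusted p-values of 0.626 and 0.566 from edgeR. Per kilobase of the canonical transcript, the ratio of GCLC to GCLM was 0.898 and 0.851 in the OE-WT libraries, beside 0.809 and 0.936 for CTRL. The OE-WT ratios lay inside the range of the CTRL ratios.

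TXNRD1 and SRXN1 serve the thioredoxin system. TXNRD1, thioredoxin reductase 1, uses NADPH to reduce thioredoxin, and SRXN1, sulfiredoxin, repairs overoxidised peroxiredoxins. TXNRD1 (ENSG00000198431, chr12:104215779-104350307, plus strand) had 243.4 and 229.5 CPM in OE-WT and 236.5 and 278.8 CPM in CTRL libraries. CTRL replicate 2 stood above the other 3 libraries, which lay together. The log2 fold change was -0.12 (95% interval -0.28 to 0.03, edgeR adjusted p = 0.252). That value turned on the CTRL libraries: without CTRL replicate 1 it was -0.24 (edgeR adjusted p = 0.0414), and without CTRL replicate 2 it was 0.0007.

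SRXN1 (ENSG00000271303, chr20:646615-653200, minus strand) had 2 and 12 counts in OE-WT and 13 and 10 counts in CTRL libraries. The OE-WT libraries lay on both sides of the CTRL libraries, and the OE-WT replicate 1 library was under the floor of 3 counts. The 95% interval of the ratio ran from 0.34 to 1.72, so it spans both a large fall and a rise. A difference in either direction was not detectable at these counts. ENSG00000270299, a coding gene annotated on the same strand, shares 90.7% of the exon bases of SRXN1 and had 1, 0, 0 and 0 counts. Reads in shared bases may have been set aside in counting, so the level of SRXN1 is uncertain.

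**Figure D2:**
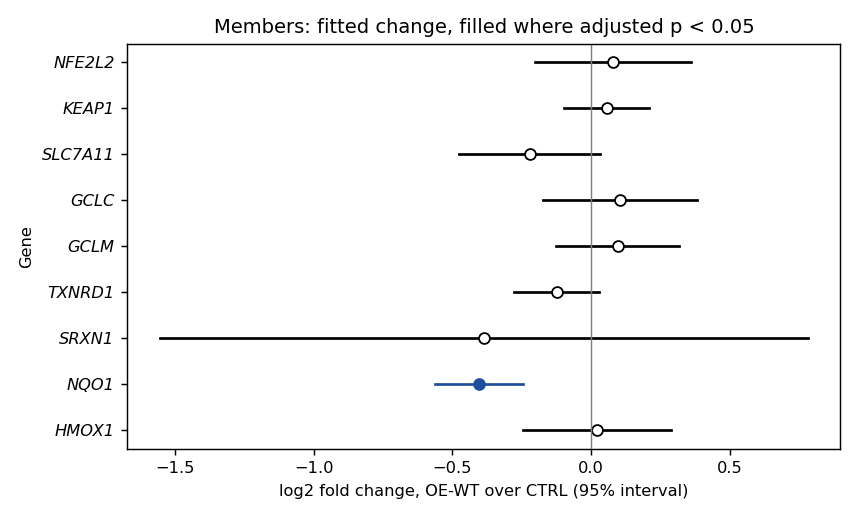
Fitted log2 fold change, OE-WT over CTRL, of the 9 members with 95% intervals from edgeR (2 libraries per group). The filled point marks NQO1, at -0.40, the member with an adjusted p below 0.05, and the interval of SRXN1 is the widest, from -1.55 to 0.78.

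NQO1 and HMOX1 act on reactive small molecules. NQO1 reduces quinones by 2 electrons and so avoids the reactive semiquinone, and its RNA is a widely used readout of NRF2. HMOX1, heme oxygenase 1, cleaves heme to biliverdin, carbon monoxide and iron, and it responds to heme and to several stresses as well as to NRF2. NQO1 (ENSG00000181019, chr16:69706996-69726668, minus strand) had 191.5 and 229.7 CPM in OE-WT and 286.7 and 270.6 CPM in CTRL libraries, from 1901, 2337, 3688 and 3334 counts. Both OE-WT libraries were below both CTRL libraries, and the gap between the groups was similar in size to the difference between the OE-WT libraries. The means were 210.6 ± 26.99 and 278.7 ± 11.34 CPM (SD, n = 2 libraries each), and NQO1 fell by 0.40 on the log2 scale (SE 0.08, edgeR adjusted p = 0.00059), a ratio of 0.756 with a 95% interval from 0.678 to 0.843. The call held under every alternative run, between -0.55 without OE-WT replicate 2 and -0.27 without OE-WT replicate 1 (edgeR adjusted p = 0.0131).

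A long noncoding gene on the opposite strand, ENSG00000261602 (chr16:69709874-69710583), has exons that lie within those of NQO1 and cover 19.4% of the exon bases of NQO1. It was singled out after its values were seen. Its counts were 10.2% and 9.71% of those of NQO1 in OE-WT libraries and 8.41% and 8.79% in CTRL libraries. It had 19.44 and 22.31 CPM in OE-WT and 24.10 and 23.78 CPM in CTRL libraries, with a log2 fold change of -0.20 (SE 0.11, edgeR adjusted p = 0.223). Both OE-WT libraries were again the lower ones. In the annotation used here all 575 exon bases of this gene are shared with NQO1. It still had 193 and 227 counts in OE-WT and 310 and 293 counts in CTRL libraries. The strand setting of the counting is not given, and how reads in the shared bases were divided between this gene and NQO1 was not tested.

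HMOX1 (ENSG00000100292, chr22:35380361-35394214, plus strand) had 15.41 and 16.51 CPM in OE-WT and 15.16 and 16.32 CPM in CTRL libraries. The 4 libraries interleaved within a narrow range. The ratio of OE-WT to CTRL was 1.015 with a 95% interval from 0.843 to 1.222 (edgeR adjusted p = 0.927). No test of the difference between the changes of NQO1 and HMOX1 was made.

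The pattern of NQO1 over the 4 libraries was compared with that of every other gene tested, by the root mean square difference of log2 CPM after each gene was centred on its own mean. The nearest were GDPD5, a glycerophosphodiesterase gene (difference 0.008), PTGES, prostaglandin E synthase (0.011), and SLC5A2, a sodium-glucose cotransporter (0.015). GDPD5 had 28.81 and 34.79 CPM in OE-WT and 43.30 and 41.40 CPM in CTRL libraries. PTGES had 42.31 and 50.71 against 62.42 and 58.85 CPM. In each of the 3, as in NQO1, OE-WT replicate 1 was the lowest library and CTRL replicate 1 the highest. These 4 libraries are few points among many genes, and nearness over them is a description only.

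The order of the members by level was read per kilobase of the canonical transcript, since CPM favour long transcripts. In CTRL cells NQO1 was the highest at 110.5 CPM per kilobase, followed by TXNRD1 at 66.75, KEAP1 at 26.46, HMOX1 at 10.13, NFE2L2 at 7.975, GCLM at 5.024, GCLC at 4.381, SLC7A11 at 2.045 and SRXN1 at 0.3604. The same order was found in OE-WT cells, where NQO1 had 83.53 and TXNRD1 61.25 CPM per kilobase. The place of SRXN1 is uncertain, because 90.7% of its exon bases are shared with ENSG00000270299 on the same strand. Its length was not reduced for these bases. GCLM and GCLC were the one pair of neighbours whose ranges over the 4 libraries overlapped, 4.971 to 5.777 and 4.107 to 5.190 CPM per kilobase. The canonical length was chosen after the levels were seen. With the length of all annotated exons joined, which is 14975 bases for NFE2L2 against 2446 in its canonical transcript, NFE2L2 took rank 8 and GCLM, SLC7A11 and GCLC took ranks 5, 6 and 7.

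**Figure D3:**
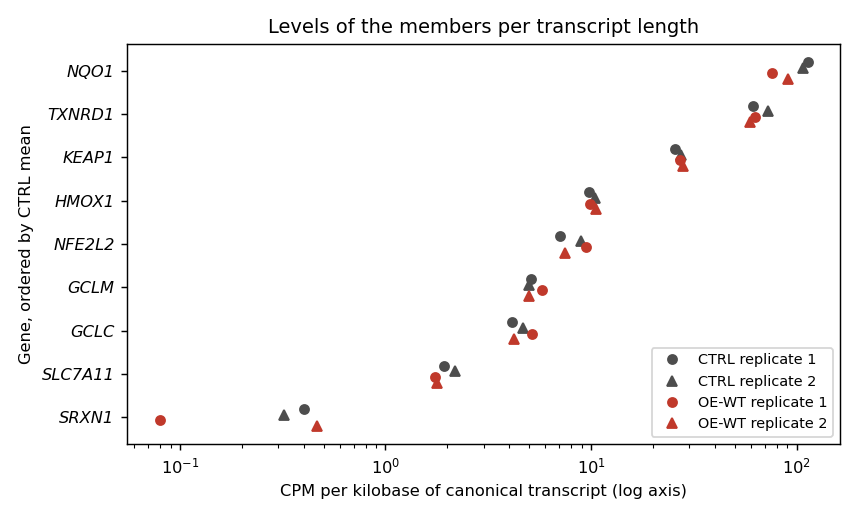
Level of each member as CPM per kilobase of canonical transcript (log axis) in the 4 libraries, ordered by the CTRL mean; CTRL in grey, OE-WT in red, circles for replicate 1 and triangles for replicate 2. The levels run from 113.7 for NQO1 in CTRL replicate 1 down to 0.0797 for SRXN1 in OE-WT replicate 1. The points of most genes lie close together beside the distance between genes. The level of SRXN1 is uncertain, because most of its exon bases are shared with another gene.

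The counts of the members were dominated by a pair of genes. NQO1 and TXNRD1 together gave 71.6% and 73.6% of the summed CPM of the 9 members in OE-WT libraries and 76.8% and 76.2% in CTRL libraries. The sum was 607.8 and 624.0 CPM in OE-WT and 681.2 and 721.2 CPM in CTRL libraries, with the groups apart. Without NQO1 it was 416.3 and 394.3 CPM in OE-WT and 394.5 and 450.5 CPM in CTRL libraries, and the groups then overlapped. The lower sum in OE-WT libraries was therefore mostly that of NQO1.

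A wider list of 60 further pathway genes, sorted by role, was read in the same fit. Of these, 52 passed the filter on low counts, and 5 were higher and 9 lower in OE-WT at the same adjusted threshold, beside the 9.44% and 11.6% of all genes. The median log2 fold change of the 52 was -0.02, from -0.64 to 0.33, and 33 had groups that did not overlap, against 60.2% of all genes tested. None had an absolute log2 fold change above 1 with an unadjusted p below 0.05. The 8 genes not tested, GPX2, GSTA4, AKR1B10, AKR1C1, AKR1C2, UGT1A6, SLC40A1 and ABCB6, had between 0 and 9 counts per library. The aldo-keto reductases AKR1C1 and AKR1C2 are nearly identical paralogs whose reads may be split between them.

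Among regulators of the pathway 2 of 12 were lower and 0 were higher, beside 11.6% and 9.44% of all genes tested. NFE2L1, the related factor NRF1, had 239.9 and 252.5 CPM in OE-WT and 343.5 and 320.0 CPM in CTRL libraries. It fell by 0.43 on the log2 scale (SE 0.07, edgeR adjusted p = 7.33e-05). MAFK, a small MAF partner of NRF2, had 41.10 and 39.11 CPM in OE-WT and 50.91 and 50.08 CPM in CTRL libraries, a log2 fold change of -0.33 (edgeR adjusted p = 0.00557). MAFK did not pass with DESeq2's Wald test (adjusted p = 0.0698). MAFF and MAFG, the other small MAF partners, CUL3 and RBX1, which form the ligase with KEAP1, and BACH1, a repressor of the same elements, did not pass the test.

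Glutathione genes of the wider list gave 4 lower and 0 higher among 11 tested, with a median log2 fold change of -0.24. Of all genes tested, 11.6% were lower and 9.44% higher, and 0 of the 3 glutathione members were called. SLC3A2, the heavy chain that anchors the SLC7A11 transporter in the membrane, had 1345 and 1380 CPM in OE-WT and 1815 and 1909 CPM in CTRL libraries. It fell by 0.45 on the log2 scale (edgeR adjusted p = 6.13e-05). SLC3A2 also serves other amino acid transporters, and its CPM was far above that of SLC7A11 in every library.

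ABCC3 and ABCC1, exporters of conjugated compounds, were lower as well. ABCC3 had 31.33 and 31.84 CPM in OE-WT and 48.97 and 48.22 CPM in CTRL libraries, a log2 fold change of -0.62 (SE 0.09, edgeR adjusted p = 2.15e-05). ABCC1 had 93.99 and 104.5 CPM against 147.1 and 130.7 CPM, a log2 fold change of -0.48 (adjusted p = 8.29e-05). GSTP1, a glutathione transferase, had 553.7 and 578.3 CPM against 691.0 and 653.6 CPM, a log2 fold change of -0.25 (adjusted p = 0.00892), and it did not pass without OE-WT replicate 1 or without CTRL replicate 1 (adjusted p = 0.0852 and 0.0773). In each of these genes both OE-WT libraries lay below both CTRL libraries, and groups without overlap were a condition for naming them. GSS and GSR, which make and reduce glutathione beside GCLC and GCLM, did not pass the test, with log2 fold changes of -0.04 and 0.01.

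The thioredoxin and NADPH roles held 3 of the 5 higher calls, and 9.44% of all genes tested were higher. PRDX6, a peroxiredoxin, was the one call among 4 thioredoxin genes, with 262.6 and 291.7 CPM in OE-WT and 241.6 and 235.6 CPM in CTRL libraries (log2 fold change 0.22, edgeR adjusted p = 0.0252). PRDX6 lost the call in 7 of 10 alternatives: with a replicate block (adjusted p = 0.0697), library size only (0.313), DESeq2's Wald test (0.0972) and no filter beyond 1 count (0.083), and without OE-WT replicate 2 (0.294), CTRL replicate 1 (0.0525) or CTRL replicate 2 (0.0882). Of 6 enzymes that supply or use NADPH, 2 were higher: PGD of the pentose phosphate pathway, with 285.9 and 298.2 against 249.2 and 235.2 CPM, and malic enzyme ME1, with 70.72 and 67.81 against 54.57 and 60.15 CPM. Their log2 fold changes were both 0.27, with adjusted p-values of 0.00472 for PGD and 0.0142 for ME1. PGD lost the call with library size only (adjusted p = 0.126) and kept it in the other 9 alternatives. ME1 lost it with library size only (adjusted p = 0.134), DESeq2's Wald test (0.119) and no filter beyond 1 count (0.0623), and without OE-WT replicate 1 (0.0674) or CTRL replicate 1 (0.176).

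NQO1's role group, mostly enzymes acting on quinones, carbonyls and xenobiotics, went both ways, with 2 higher and 2 lower of 13 tested. Of all genes tested, 9.44% were higher and 11.6% lower. Among the called genes of the group, TRIM16 (higher) and OSGIN1 (lower) are not such enzymes. UGDH, which makes the UDP-glucuronate used in conjugation, had 106.5 and 100.6 CPM in OE-WT and 78.74 and 85.88 CPM in CTRL libraries, a log2 fold change of 0.33 (edgeR adjusted p = 0.00209), and its call was the one among the 5 higher that held with library size only (adjusted p = 0.0317). TRIM16 was higher by a log2 fold change of 0.28 (adjusted p = 0.00834) and lost the call with library size only, with DESeq2's Wald test and without OE-WT replicate 2 (adjusted p = 0.118, 0.0841 and 0.0653). OSGIN1, an NRF2-responsive growth inhibitor, had 12.69 and 11.50 CPM in OE-WT and 19.98 and 17.78 CPM in CTRL libraries and fell by 0.64 on the log2 scale (SE 0.13, adjusted p = 0.00156). EPHX1, epoxide hydrolase 1, had 176.5 and 194.5 against 233.0 and 221.0 CPM and fell by 0.29 (adjusted p = 0.00373), and without OE-WT replicate 1 it did not pass (adjusted p = 0.0632).

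Of 6 iron and heme genes tested beside HMOX1, 1 was lower, against 11.6% of all genes tested. BLVRB, a biliverdin reductase that acts downstream of heme breakdown, had 43.72 and 49.73 CPM in OE-WT and 70.19 and 61.04 CPM in CTRL libraries, a log2 fold change of -0.49 (SE 0.09, edgeR adjusted p = 0.000355). The ferritin chains FTH1 and FTL, which store iron, had log2 fold changes of -0.14 and 0.02 and did not pass the test.

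**Figure D4:**
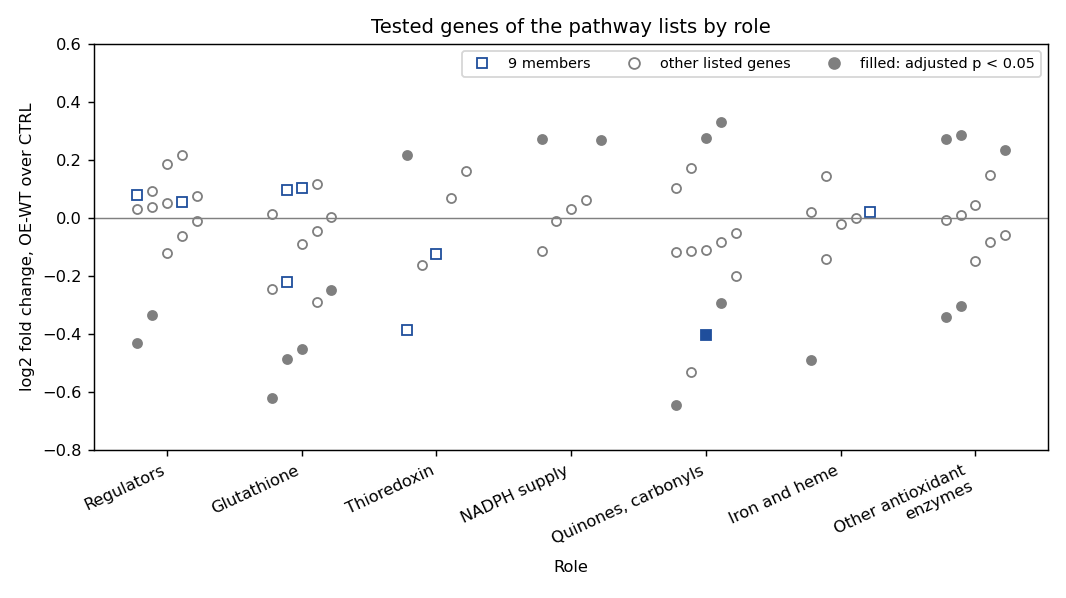
Log2 fold change, OE-WT over CTRL, of each tested gene by role, with the 9 members as squares and other listed genes as circles; filled symbols have an adjusted p below 0.05 from edgeR. NQO1 is the filled square in the quinone and carbonyl column, the glutathione column has 4 filled circles below 0 and none above, and the NADPH column has 2 filled circles above 0.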

How the data were processed

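The deposited values are raw counts per gene, 1 column per library, which the authors made from Cutadapt-trimmed reads and HISAT2 alignments to GRCh38. The methods name HTSeq, and the submitters' processing notes name HISAT2 2.2.1, featureCounts 2.0.0 and DESeq2 1.34.0. The methods describe ribosomal RNA removal and 3 biological replicates, whereas the labels describe poly(A) selection, a stranded kit and 2 replicates in 2 lanes each, which the table does not separate. The annotation release and strand setting are not given in the sources used here. The design text describes duplicate cultures. The p-values rest on the spread between these samples, pooled in part across genes. They do not cover differences between separately derived lines.

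GENCODE release 44 matched 57532 of 58302 identifiers and gave symbols and coordinates. Genes passing edgeR's filter by group (minimum count 10) were TMM-scaled and tested by the quasi-likelihood test of edgeR 4.0.16 in R 4.3.3. The fit had no replicate block, and p-values were adjusted over 14133 genes by the Benjamini-Hochberg method. Standard errors are the absolute log2 fold change over the square root of F. With 2 libraries per group, an exact two-sided permutation test cannot give a p below 0.333. Pearson's r of log2 CPM across genes was 0.990 and 0.992 within groups and 0.977 to 0.983 between them. Other settings tried were a replicate block, each library left out, other filters, DESeq2 1.42.0, RLE size factors and scaling by library size only. The steps were tested on simulated counts. Figures were drawn with Python 3.11.15 and matplotlib 3.10.9.

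The members and lists, the latter from general knowledge, were chosen with earlier results of these data known. Named genes are the members, TRMT6, TRMT61A, listed genes past the adjusted threshold whose groups do not overlap, at most 5 per role, and the 3 genes nearest to the member of largest change. Other genes named were chosen after their values were seen.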

Additional observations from a re-analysis of the deposited data

How the results depend on the processing

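NQO1 stayed lower and past the threshold in all 10 alternatives, and 0 members were called higher in any. The count of members called lower was 1 to 2 with a library left out, the added call being TXNRD1 without CTRL replicate 1, and the count past the fold threshold was 0 to 1, the latter SRXN1 without OE-WT replicate 2 (log2 fold change -2.13, edgeR adjusted p = 0.155). In these fits the lone library was assumed to vary like the others. Of the wider list, 5 were higher as reported, 1 with library size only, 2 with DESeq2's Wald test, 3 with no filter beyond 1 count, and 3 to 4 with a library left out (3 without OE-WT replicate 2 and 3 without CTRL replicate 1); the 9 lower calls became 12 with library size only, and 7 to 11 with a library left out. Of the other antioxidant enzymes, 3 were higher, 0 with library size only, 1 with DESeq2 and 1 to 3 with a library left out (1 without OE-WT replicate 2), and 2 were lower, 1 with DESeq2 and 1 to 2 with a library left out (1 without OE-WT replicate 1). The causes were not tested, except that library size only lowered the median of all genes from 0.01 to -0.08.

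Members that did not pass the test changed sign as follows. With library size only, the log2 fold change was -0.011 for NFE2L2, -0.034 for KEAP1 and -0.0695 for HMOX1. With a library left out, it ran from -0.094 (without OE-WT replicate 1) to 0.26 for NFE2L2, and it was also below 0, at -0.079, without CTRL replicate 1. For HMOX1 it ran from -0.039 (without OE-WT replicate 2) to 0.076, and it was -0.032 without CTRL replicate 1. For TXNRD1 it ran from -0.24 to 0.0007 (without CTRL replicate 2). Without OE-WT replicate 1 it was below 0 for GCLC (-0.044, with 0.24 at the other end of the range) and GCLM (-0.011, with 0.19) and above 0 for SRXN1 (0.37, with -2.13). SRXN1 was not tested where at least 10 counts in every library were required. Over all genes, DESeq2 called 1373 against 2976 with edgeR.

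Libraries of different groups share only a number (correlation of deviations across genes -0.068). With the number as a replicate block, 2658 genes were called, 0 members were higher and 1 lower, and the wider list had 4 higher and 10 lower.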

Other observations

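Antioxidant enzymes kept apart from the NRF2 lists, 14 names of which 12 were tested, gave 3 higher and 2 lower calls at the adjusted threshold of 0.05 (edgeR), beside 9.44% and 11.6% of all genes tested, with a median log2 fold change of 0.002. The mitochondrial thioredoxin TXN2 had 87.04 and 99.16 CPM in OE-WT and 78.12 and 74.60 CPM in CTRL libraries, a log2 fold change of 0.29 (adjusted p = 0.00921). The peroxiredoxins PRDX5 and PRDX2 had log2 fold changes of 0.27 (adjusted p = 0.00416) and 0.23 (adjusted p = 0.0204). The 3 higher calls were lost with library size only (adjusted p = 0.102, 0.117 and 0.248 for TXN2, PRDX5 and PRDX2). TXN2 and PRDX2 also lost theirs with DESeq2's Wald test (adjusted p = 0.075 and 0.0828) and without OE-WT replicate 2 (0.163 and 0.16), and PRDX2 without CTRL replicate 2 (0.198) and with no filter beyond 1 count (0.0718).

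PRDX4, the peroxiredoxin of the endoplasmic reticulum, had 162.2 and 175.8 CPM in OE-WT and 213.9 and 214.4 CPM in CTRL libraries and fell by 0.34 on the log2 scale (edgeR adjusted p = 0.000773). GPX8, a glutathione peroxidase family member of the same compartment, had 57.02 and 61.72 CPM against 74.39 and 72.08 CPM and fell by 0.30 (adjusted p = 0.00593). PRDX4 held its call in every alternative run, while GPX8 lost it with DESeq2's Wald test and without OE-WT replicate 1 (adjusted p = 0.0641 and 0.0735). CAT, SOD1, GPX1, GPX4 and PRDX3 did not pass the test, with log2 fold changes between -0.15 and 0.15. SOD3 had 0 to 2 counts, and SOD2 was not analysed here.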
